A study of Mus musculus with 16 samples.

Results

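The genotype comparison at matched virus set 4 P635L hearts that received the Tnpo3 virus against 4 wild-type hearts that received the same virus. These 8 libraries were chosen by their labels, as 8 of the 16 in the series. The P635L mice were homozygous for P635L, a proline-to-leucine substitution in RBM20, and the strain was given as Bl6J. All 8 mice, males and females, received 1e12 vector genomes of AAV9 carrying Tnpo3 cDNA by tail vein injection when 4 weeks old. Left ventricle RNA was taken 12 weeks after that, at an age of 16 weeks. The other 8 mice, 4 of each genotype, received the same dose of AAV9 carrying a Cre-eGFP control construct, so the mice compared here differ in genotype and share the virus, whose Tnpo3 is added to the gene's own. The series set out to ask what Tnpo3 delivery does in hearts with the RBM20 mutation, and this comparison asks what still separates the genotypes once both carry the virus.

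RBM20 is a splicing repressor of striated muscle. It acts in the nucleus and controls exon choice in titin, the ryanodine receptor, CaMKII delta and other genes of the sarcomere and of calcium handling. Mutations in its arginine- and serine-rich stretch are known to cause dilated cardiomyopathy and to leave the protein in the cytoplasm. Transportin 3, the product of Tnpo3, is the nuclear import receptor of proteins with such stretches.

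The coding sequence around the substituted codon is shown because it defines the genotype. It was read from the GENCODE M21 transcripts, 5′ to 3′, with the proline codon of the reference in capitals, and the labels do not give the base change.
Rbm20 P635L codon: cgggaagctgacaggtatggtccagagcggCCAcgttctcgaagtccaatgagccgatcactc

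Coding exons whose inclusion differed between the genotypes and whose sequence could be matched are shown next. Tropomyosin 2 (Tpm2), an actin-binding regulator of contraction, has a pair of alternative exons of 76 bases each on the minus strand of chromosome 4 (GRCm39), called exon A (chr4:43519003-43519078) and exon B (chr4:43518644-43518719) here. Both lie whole in coding sequence, and capitals mark the 35 positions at which they differ. The remaining 41 positions are shared.
Tpm2 exon A: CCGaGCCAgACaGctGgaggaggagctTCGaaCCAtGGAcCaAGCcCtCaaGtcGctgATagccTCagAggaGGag
Tpm2 exon B: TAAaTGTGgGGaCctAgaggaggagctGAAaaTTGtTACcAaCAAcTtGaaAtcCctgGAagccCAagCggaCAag
The skipped exon of Hyi, a gene for a putative hydroxypyruvate isomerase (chr4:118217503-118217586), and a titin exon of 81 bases (chr2:76687954-76688034) also lie in coding sequence and are printed without capitals.
Hyi exon: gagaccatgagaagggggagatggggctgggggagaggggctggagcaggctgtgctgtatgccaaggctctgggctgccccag
Ttn exon: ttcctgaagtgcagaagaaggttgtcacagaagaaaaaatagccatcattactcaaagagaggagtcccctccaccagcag

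The 8 libraries held 33909626 to 48155174 counts. A single abundant gene, ENSMUSG00000119584, took 22.7% of the counts of WT Tnpo3 library 4 and 0.749% to 5.17% in the other 7. WT Tnpo3 libraries 1 and 2 stood apart on the first principal component, at -67.87 and -57.15 against -10.56 to 33.21 in the other 6. Xist exceeded the Y-linked genes in WT Tnpo3 libraries 2 and 4 and in none of the P635L Tnpo3 libraries, so sex was not balanced between the groups. The biological coefficient of variation was 0.3 in the WT Tnpo3 group and 0.176 in the P635L Tnpo3 group.

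Tnpo3 itself was measured at 359, 722, 543 and 234 CPM, the counts scaled to library size, in the P635L Tnpo3 libraries and at 282, 262, 231 and 507 CPM in the WT Tnpo3 libraries. The groups overlapped, and the difference in mean log2 CPM was 0.482 (exact permutation test, two-sided, p = 0.286). Rbm20 was measured at 241, 215, 251 and 195 CPM with P635L and at 169, 196, 233 and 299 CPM in the wild type. Its log2 difference was 0.01 (edgeR adjusted p = 0.991). Neither gene passed the test, and Rbm20's difference changed sign when some libraries were left out.

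Of 18662 genes tested, 694 (3.72%) passed an adjusted p of 0.05 in edgeR's quasi-likelihood test, 321 higher (1.72%) and 373 lower (2.0%) in P635L Tnpo3. The median absolute log2 difference of these genes was 0.87, and 299 of them differed by at least 1 on the log2 scale. The CPM values of the groups did not overlap for 639 of the 694 (3.42% of the genes tested), and did not overlap for 11.5% of all genes tested. Each of the 8 libraries moved the count by more than 1.5 times when left out. It was 431, 366, 402 and 280 without P635L Tnpo3 libraries 1, 2, 3 and 4, and 298, 333, 1216 and 1220 without WT Tnpo3 libraries 1, 2, 3 and 4. Without WT Tnpo3 libraries 1 and 2 it was 144. All 59 named genes that were called kept their direction in that last fit, and 20 of them still passed. The groups of most of these genes did not overlap. Leaving out libraries can hardly reverse such a difference, so the kept direction is no test. The calls of Casq1, Cenpf, Fzd2, Hdhd3, Hopx, Kcnd2, Lrtm1, Mybpc2, Myh7b, Pdlim3, Pyroxd2, Tnni2, Tnnt3 and Wnt5a held under each of the 18 alternatives tried, as did those of 4 predicted or unnamed genes. The calls of the other genes named in the text were lost under at least 1 alternative.

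Of 10 genes of the stressed heart, 4 rose (Nppa, Nppb, Ankrd1 and Gdf15), none fell and 6 did not pass, against 1.72% of all genes called higher. The list's median log2 difference was 1.06, against -0.02 over all genes tested, and 3 members had a negative value. This list and the lists below were chosen with earlier results of these data known. Their shares and medians are therefore descriptions and not tests. For the lists below too, 1.72% of all genes were called higher and 2.0% lower. Nppa, the atrial natriuretic peptide, stood at 1094, 1198, 916 and 4506 CPM in P635L Tnpo3 and at 210, 289, 228 and 191 CPM in WT Tnpo3. Every P635L library was above every wild-type library, and P635L library 4 was far above the others (log2 difference 3.07 ± 0.48 SE, adjusted p = 0.00247, n = 4 per group). Nppb, the B-type natriuretic peptide, was at 601, 833, 537 and 1108 CPM with P635L and at 179, 431, 219 and 262 CPM in the wild type, a fitted 2.82-fold rise (adjusted p = 0.0276). Ankrd1, a stretch-responsive repeat protein of the sarcomere, was at 1655, 1844, 1495 and 2755 CPM with P635L and at 471, 292, 926 and 718 CPM in the wild type, without overlap (log2 difference 1.69, adjusted p = 0.00748). Gdf15, a secreted stress cytokine, rose by 2.68 (adjusted p = 0.00472). The groups did not overlap for any of these 4 genes. Acta1, the skeletal actin of this list, had a log2 difference of 2.48 and did not pass (adjusted p = 0.0888). Without WT Tnpo3 libraries 1 and 2, which leaves 2 wild-type libraries, none of the 4 passed, at log2 differences of 3.21 for Nppa, 1.69 for Nppb, 1.25 for Ankrd1 and 2.77 for Gdf15.

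Several genes named under different lists encode forms known from fast or skeletal muscle, a grouping made after their values were seen. Casq1, the skeletal calsequestrin that binds calcium in the sarcoplasmic reticulum, was at 120, 71.5, 94.8 and 73.8 CPM in P635L Tnpo3. The wild-type libraries had 16.8, 13.8, 11.3 and 6.94 CPM. The groups were far apart, with a log2 difference of 2.88 ± 0.23 SE (adjusted p = 1.28e-06). Tnni2, the fast skeletal troponin I, rose by 3.15 (adjusted p = 7.14e-06), from 0.971 to 2.37 CPM in the wild type up to 7.90 to 17.0 CPM. Mybpc2, the fast form of myosin-binding protein C, rose by 2.26, and Tnnt3, the fast troponin T, by 1.96. Of 6 skeletal muscle markers, 2 were expressed enough to be tested and 1 rose. Their summed level was 0.783 to 1.26 CPM in WT Tnpo3 and 2.65 to 6.18 CPM in P635L Tnpo3, and its part in these results was not tested.

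**Figure D1:**
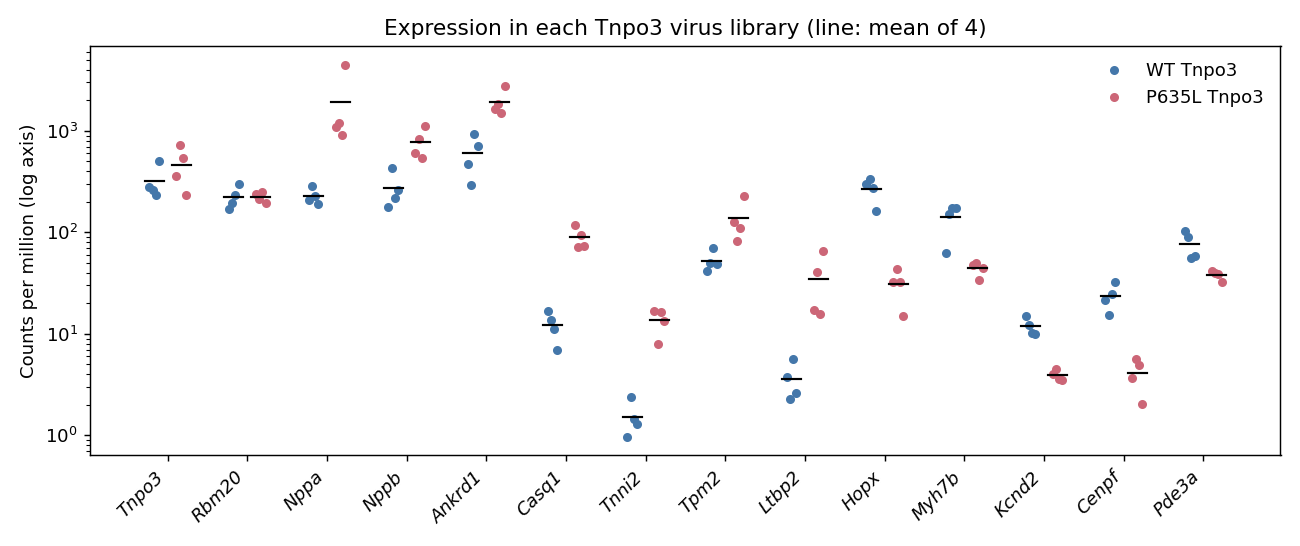
CPM on a log axis for 14 genes in the 4 WT Tnpo3 (blue) and 4 P635L Tnpo3 (red) libraries, with a black line at the mean. Tnpo3 and Rbm20 overlap between the groups, Nppa to Ltbp2 are higher with P635L, and Hopx to Pde3a are lower.

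Sarcomere genes moved in both directions. Of 27 tested, 2 rose (Tpm2 and Mybpc2) and 2 fell (Myh7b and Mybphl), against 1.72% and 2.0% of all genes. The list's median was -0.16. Tpm2 was at 127, 83.1, 111 and 227 CPM with P635L and at 41.5, 50.1, 69.8 and 48.8 CPM in the wild type (log2 difference 1.38, adjusted p = 0.00639). Myh7b, a slow-type myosin heavy chain that also hosts a microRNA, was at 48.0, 50.5, 33.9 and 44.7 CPM with P635L. The wild-type libraries had 62.3, 152, 175 and 174 CPM, so that WT Tnpo3 library 1 lay near the P635L values (log2 difference -1.67, adjusted p = 0.00167). Mybphl was below 1 CPM in all 8 libraries.

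In calcium handling, 2 of 21 genes rose (Casq1 and Cacna1g) and 2 fell (Slc8a1 and Srl), against 1.72% and 2.0% of all genes. Neither lower call was kept without any single P635L Tnpo3 library or without WT Tnpo3 library 1 or 2, and 4 genes were called lower without WT Tnpo3 library 3 or 4. Cacna1g, a T-type calcium channel, rose by 1.10 (adjusted p = 0.00132), and Slc8a1, the sodium-calcium exchanger, had a log2 difference of -0.89 (adjusted p = 0.0468). Of 17 potassium channel genes, 2 fell and none rose, against 2.0% of all genes called lower. Kcnd2, a channel of the transient outward current, was at 4.03, 4.54, 3.58 and 3.52 CPM with P635L and at 15.1, 12.4, 10.3 and 9.91 CPM in the wild type (log2 difference -1.60, adjusted p = 0.00161). Kcnj3, a subunit of the acetylcholine-activated channel, had a difference of -0.95. Hcn2, a pacemaker channel, rose by 0.69 (adjusted p = 0.0386), and Gja3, a connexin, had a difference of -0.64 (adjusted p = 0.0192).

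Hopx, a homeodomain cofactor of cardiac transcription, was the 1 of 15 cardiac transcription factors that passed, against 3.72% of all genes. Of the 15, 14 had a negative difference (median -0.35, against -0.02 over all genes tested). The number called lower was 3 without WT Tnpo3 library 3, 2 without P635L Tnpo3 library 3 and 4 with DESeq2, and Hopx passed under each alternative. It was at 32.7, 43.1, 32.6 and 15.0 CPM in P635L Tnpo3 and at 296.5, 334, 271 and 163 CPM in WT Tnpo3, well apart (log2 difference -3.11 ± 0.28 SE, adjusted p = 1.12e-05). Wnt5a, a secreted Wnt ligand, and Cenpf, a kinetochore protein, had differences of -1.92 and -2.52. Cenpf was the 1 member of 14 cell cycle genes that passed, against 3.72% of all genes. Gm6969, a pseudogene whose reads may be shared with a near-identical copy, had the largest fall of the named genes, from 30.04 to 85.0 CPM in the wild type down to 0.216 to 0.586 CPM. A gene of the other strand overlaps many of the named genes in the annotation. Among them are Tnpo3, Rbm20, Nppa, Ankrd1, Hopx, Casq1, Myh7b, Pyroxd2, Ltbp2, Cenpf, Wnt5a and Lrtm1. The library kit kept strand, but the strand setting of the counting is not given in the sources used here, so reads of such pairs may be mixed.

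The median log2 difference of the 28 extracellular matrix genes tested was 0.43, against -0.02 over all genes tested. Of the 28, 4 rose (Ltbp2, Comp, Fmod and Cilp) and none fell, against 1.72% of all genes called higher. The count was 1 without WT Tnpo3 library 1, WT Tnpo3 library 2, P635L Tnpo3 library 2 or P635L Tnpo3 library 4, and 0 without both of those wild-type libraries, when the adjusted p of the 4 genes was 0.0945 to 0.328. Without P635L Tnpo3 library 4 the median was 0.186. Ltbp2, a binding partner of latent TGF-beta, was at 17.2, 40.5, 15.8 and 66.3 CPM with P635L and at 3.79, 2.27, 5.67 and 2.61 CPM in the wild type. P635L libraries 2 and 4 were the highest here, as for Comp at 57.9 and 52.3 CPM, Fmod at 8.08 and 9.03 CPM and Cilp at 67.7 and 73.2 CPM. Col1a1 (0.16, adjusted p = 0.746), Col3a1 (-0.11, adjusted p = 0.85) and Postn (1.36, adjusted p = 0.12) did not pass. None of 6 fibroblast markers passed, and their summed level was 738 to 859 CPM in WT Tnpo3 and 734 to 995 CPM in P635L Tnpo3. In bulk tissue, fewer cells of a type and less RNA per cell cannot be told apart.

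Energy metabolism genes mostly did not pass. Of 18 fatty acid oxidation genes, 3 fell (Acadvl, Acsl1 and Acot1) and none rose, against 2.0% of all genes called lower. Acsl1, which activates long-chain fatty acids, was at 273, 270, 284 and 212 CPM with P635L and at 620, 591, 326 and 306 CPM in the wild type. The highest values were WT Tnpo3 libraries 1 and 2, and its call was lost without them. None of 24 oxidative phosphorylation genes passed, but 5 were called lower without WT Tnpo3 library 4. None of 19 genes of SR proteins and their kinases passed, but 3 were called higher without WT Tnpo3 library 3, 1 without WT Tnpo3 library 4 and 2 with DESeq2. Of 16 glycolysis genes, Pfkfb2, a regulator of glycolytic flux, rose by 0.86 (adjusted p = 0.00479).

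Signalling and vascular genes were lower in places, beside 2.0% of all genes called lower and 1.72% called higher. Of 16 genes of the renin-angiotensin, endothelin and adrenergic systems, Pde3a (-1.01), Ednra (-0.86) and Adra1a (-1.08) fell and Ace (0.87) rose. Of 6 mural cell markers 2 fell, Acta2 (-0.88) and Abcc9 (-0.66), and their summed level was 1080 to 1230 CPM in WT Tnpo3 and 797 to 882 CPM in P635L Tnpo3. Of 5 endothelial markers, Cdh5 fell (-0.51), with a summed level of 1010 to 1130 CPM against 848 to 959 CPM. Acta2 (-0.616), Abcc9 (-0.555) and Cdh5 (-0.391) did not pass without WT Tnpo3 libraries 1 and 2. None of 6 macrophage and none of 6 lymphocyte markers passed. The part of these cell types in the other results was not tested. Of 19 nuclear import and export genes 2 fell, the import receptors Tnpo1 (-0.40, adjusted p = 0.0482) and Kpna1 (-0.68, adjusted p = 0.0444). Neither call was kept without any single P635L Tnpo3 library or without WT Tnpo3 library 1 or 2, and Tnpo1 lost its call in 12 of 18 alternatives and Kpna1 in 9.

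Counts for the remaining lists stand beside 3.72% of all genes called. Of 25 genes that RBM20 is known to splice, Pdlim3, a Z-disc scaffold, rose by 0.83 (adjusted p = 0.000706) and the formin Fhod3 had a difference of -0.64, with a median of -0.12 over the list. Ttn (-0.56) and Camk2d (-0.10) did not pass at the level of the whole gene. Of 16 genes of the ATF4 stress response and one-carbon metabolism, Atf5 and Gdf15 rose, and of 14 muscle splicing regulators Rbfox1 fell (-0.93, adjusted p = 0.0308). None of 17 circadian clock, 15 interferon or 13 heat shock genes passed.

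The defining markers of the ventricular cardiomyocyte were abundant in all 8 libraries, with a summed level of 67000 to 85600 CPM in WT Tnpo3 and 58000 to 67700 CPM in P635L Tnpo3, and none of 6 passed. Of 3 atrial markers tested Nppa rose and Mybphl fell, while Myl7 and Sln were too low to test. No marker passed among 4 of antigen presentation, 2 of adipocytes, 5 of erythroid cells, 3 of Schwann cells and 3 of the epicardium. The erythroid markers summed to 279 to 1470 CPM in WT Tnpo3 and 1000 to 1560 CPM in P635L Tnpo3.

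Some of the largest changes fell outside these lists. Pyroxd2, a putative mitochondrial oxidoreductase, was at 16.8 to 41.5 CPM with P635L and at 2.09 to 4.42 CPM in the wild type (log2 difference 3.31, adjusted p = 0.000158). Its groups were fully apart. Lrtm1, a leucine-rich repeat membrane protein, had 154, 116, 159 and 187 CPM with P635L and 655, 543, 524 and 447 CPM in the wild type (log2 difference -1.82, adjusted p = 3.4e-05).

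The same genotype contrast under the control virus, in 8 other libraries, called 2653 genes (14.2%), 1320 higher (7.07%) and 1333 lower (7.14%). Of the 694 genes called with the Tnpo3 virus, 469 were among them, which was 67.6% of the 694 and 17.7% of the 2653. Of the 469, 467 had the same sign in both contrasts. Over the 2653 genes the slope through 0 of the difference with Tnpo3 virus on that with control virus was 0.466, and 94.7% of them differed less with Tnpo3 virus. Taking P635L Tnpo3 libraries 1 to 4 singly, the slope was 0.418, 0.453, 0.376 and 0.595. Genes chosen for passing under the control virus tend to have larger differences there by the choice itself.

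**Figure D2:**
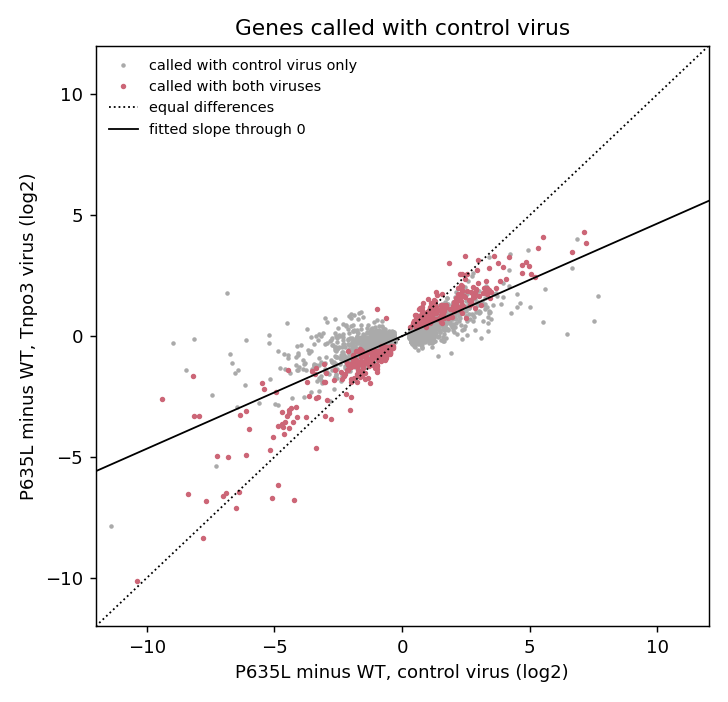
Log2 difference P635L minus wild type with the control virus (x axis) and with the Tnpo3 virus (y axis) for the 2653 genes called with the control virus, red where also called with Tnpo3 virus. Most points lie between the x axis and the dotted line of equal differences, and the fitted slope through 0 is 0.466.

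The difference between the contrasts was tested directly, and 94 genes (0.504%) passed, 55 with a more positive genotype difference under Tnpo3 virus (0.295%) and 39 with a more negative one (0.209%). This count was 61, 59 and 52 without P635L Tnpo3 libraries 1, 2 and 3, and 221 without WT Tnpo3 library 4. With the control virus Myh7b averaged 0.764 ± 0.0432 CPM (SD, n = 4) in P635L hearts and 225 ± 60.04 CPM in wild-type hearts, against 141 ± 53.5 CPM in WT Tnpo3 and 44.3 ± 7.32 CPM in P635L Tnpo3. Its interaction was 6.53 on the log2 scale (adjusted p = 3.18e-07). Hopx was at 3.82 ± 0.903 CPM in P635L Ctr and at 30.9 ± 11.7 CPM in P635L Tnpo3, with wild-type means of 267 and 266 CPM under control and Tnpo3 virus (interaction 3.01, adjusted p = 0.00175). Casq1 went the other way, at 321 ± 36.7 CPM in P635L Ctr and 89.9 ± 22.4 CPM in P635L Tnpo3 (interaction -2.10, adjusted p = 0.00397). For these 3 genes the P635L Tnpo3 mean lay between P635L Ctr and the wild type.

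Splicing was compared through inclusion levels, the fraction of junction reads that hold an exon or intron, corrected for length by the authors. Both Tnpo3 tables held 34149 events, and 24177 had enough reads to test. By edgeR's quasi-likelihood test with a dispersion of 0, 162 (0.67%) passed an adjusted p of 0.05 with an inclusion difference of at least 0.1. Without the WT Tnpo3 libraries listed in positions 1 and 2 it was 89 and 95, each left out alone, and 103 without the P635L Tnpo3 library in position 4. The count also rests on how the spread is modelled: limma on log2 ratios called 6, and edgeR with an estimated dispersion called 6. At an unadjusted p under 0.05, 2157 events (8.92%) passed the first test. The same 6 events passed all 3 tests, 4 in Tpm2 and 1 each in Limch1 and Hyi. Inclusion levels of the groups did not overlap for 99 of the 162, against 3.12% of all events.

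In Tpm2 the inclusion level of exon A was lower and that of exon B higher with P635L. Inclusion of exon A was 0.477, 0.478, 0.431 and 0.361 in P635L Tnpo3 and 0.953, 0.798, 0.958 and 0.910 in WT Tnpo3, in the order the tables list the libraries. Inclusion of exon B was 0.395, 0.299, 0.400 and 0.419 in P635L Tnpo3 and 0.023, 0.104, 0.014 and 0.017 in WT Tnpo3. The groups were fully apart for both exons, with differences of -0.468 and 0.339 (exact permutation test, two-sided, p = 0.0286 each, the smallest that 4 against 4 allows). Another Tpm2 event, the use of the longer form at an alternative 3′ splice site of its final exon (chr4:43514711-43516003), rose from a mean of 0.0752 to 0.627. Mean junction reads per library were 798 with P635L and 300 in the wild type for exon A. The event of each exon has the other exon as a flank. The event of the mutually exclusive Tpm2 pair averaged 0.528 in P635L Tnpo3 and 0.937 in WT Tnpo3. Whole-gene Tpm2 was higher with P635L (log2 difference 1.38). These fractions therefore do not give the amount of each form, and a fall in exon A transcripts is not shown.

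The 78-base exon of Limch1, an actin-associated protein (chr5:67193369-67193446), was almost lost with P635L. Its inclusion was 0, 0.012, 0.018 and 0.017 in P635L Tnpo3 and 0.283, 0.527, 0.459 and 0.474 in WT Tnpo3. The Hyi exon had an inclusion of 0 in all 4 P635L libraries and of 0.405, 0.362, 0.384 and 0.415 in the wild type. It had only 34.5 and 14.0 mean junction reads, and was named after its values were seen, as were Tpm2 exons A and B. The Limch1 exon is not printed because its sequence was not matched.

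**Figure D3:**
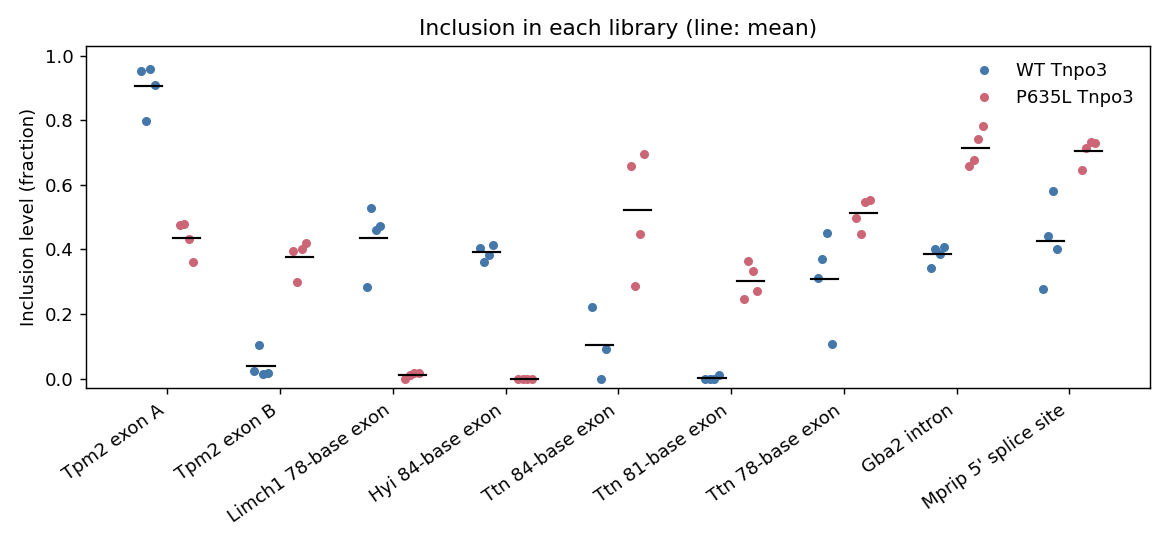
Inclusion level (fraction) of 9 events in each of the 4 WT Tnpo3 (blue) and 4 P635L Tnpo3 (red) libraries, with a black line at the mean. Tpm2 exon A, Limch1 and Hyi are lower with P635L, the other 6 are higher, and 1 wild-type library has no level for the 84-base Ttn exon.

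Among genes that RBM20 is known to regulate, 462 events in 24 genes were tested and 8 passed, 7 in Ttn and 1 in Ryr2, against 0.67% of all events. At an unadjusted p under 0.05, 14.7% of the target events passed, against 8.92% of all events. None of the 8 passed in the other 2 tests. The 81-base Ttn exon, singled out after its values were seen, had an inclusion of 0.246, 0.365, 0.332 and 0.271 with P635L and of 0, 0, 0 and 0.011 in the wild type, fully apart (adjusted p = 4.6e-05, exact permutation p = 0.0286). An 84-base Ttn exon (chr2:76657339-76657422) was at 0.659, 0.288, 0.448 and 0.694 with P635L and at 0.221, 0 and 0.093 in the 3 wild-type libraries that had reads for it (adjusted p = 0.00146, exact permutation p = 0.0571). With the control virus its means were 0.974 in P635L and 0.059 in the wild type. A retained intron of Ryr2, the ryanodine receptor, differed by 0.103, and its groups overlapped. No event of Camk2d, Ldb3 or Trdn was called, although an 18-base Trdn exon had an adjusted p of 0.000235 with a difference of only -0.0335, under the minimum of 0.1. A 60-base Camk2d exon averaged 0.331 ± 0.199 (SD, n = 4) with P635L and 0.0938 ± 0.0698 in the wild type (adjusted p = 0.3), and 0.958 against 0.0442 with the control virus. In a second event, with another downstream exon, the same exon averaged 0.17 with P635L and 0.0308 in the wild type. With the control virus that second event averaged 0.606 and 0.0518.

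Retained introns made up 69 of the 162 called events, and 68 of these were more retained in P635L Tnpo3. None of the 69 passed all 3 tests. Over the 2701 introns tested, mean inclusion was 0.324 to 0.329 in the P635L Tnpo3 libraries and 0.279, 0.289, 0.317 and 0.324 in WT Tnpo3, so the first pair of wild-type libraries listed was the lowest. The table order is not tied to replicate numbers in the sources used here. Named introns included those of Gba2, a glucosylceramidase, at 0.658 to 0.783 with P635L and 0.342 to 0.409 in the wild type, and of Hsd3b7, a bile acid enzyme, at 0.623 to 0.791 and 0.334 to 0.467. The named Fyttd1 intron was at 0.398 to 0.897 with P635L and 0.161 to 0.418 in the wild type. Its groups overlapped, as did those of the Ryr2 intron. The part of the library difference in these calls was not tested.

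Other named events lay in genes of adhesion and the cytoskeleton. A 102-base exon of paxillin (Pxn), an adaptor of focal adhesions, was at 0.731, 0.544, 0.648 and 0.779 with P635L and at 0.242 to 0.5 in the wild type, without overlap. An 86-base exon of Actn4, a non-muscle alpha-actinin, averaged 0.586 ± 0.173 (SD, n = 4) and 0.869 ± 0.106, and its groups overlapped. Mprip, a myosin phosphatase partner, used the longer form of a 5′ splice site at 0.647, 0.713, 0.733 and 0.731 with P635L and at 0.278, 0.442, 0.582 and 0.402 in the wild type. With the control virus that Mprip difference was -0.0543, and its interaction did not pass (adjusted p = 0.423).

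With the control virus 185 of 34601 events passed (0.535%), and 34 of the 162 were among them. Across the 161 events that passed with the control virus and were measured here, the slope through 0 of the Tnpo3-virus difference on the control-virus difference was 0.333. For 129 of them (80.1%) the sign was the same, and 149 differed less with Tnpo3 virus. Events chosen for passing under the control virus tend to have larger differences there by the choice itself. The 27 events in RBM20 target genes had a slope of 0.235, and the 134 in other genes 0.409, a difference that was not tested. The 27 lie in 9 genes and the 134 in 99 genes. Several events of Ttn and of Tpm2 share exons and have large differences, so the events are not independent points. The interaction passed for 28 of 25400 events (0.11%), and for 2 with an estimated dispersion. Leaving out the P635L Tnpo3 libraries in positions 1 to 4 gave 83, 64, 83 and 72 events, and leaving out the WT Tnpo3 libraries in positions 3 and 4 gave 92 and 56. A 78-base Ttn exon, also chosen after its values were seen (chr2:76692456-76692533) averaged 1.0 in P635L Ctr and 0.177 in WT Ctr, against 0.512 ± 0.0489 in P635L Tnpo3 and 0.31 ± 0.146 in WT Tnpo3 (interaction adjusted p = 8.59e-06). The Tpm2 and Limch1 events did not pass the interaction. The Hyi exon could not be judged by it, because its inclusion was 0 in every P635L library under both viruses. For Hyi the genotype difference was -0.694 with the control virus and -0.392 with the Tnpo3 virus. For Limch1 the genotype difference was -0.483 with the control virus and -0.424 with the Tnpo3 virus.

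**Figure D4:**
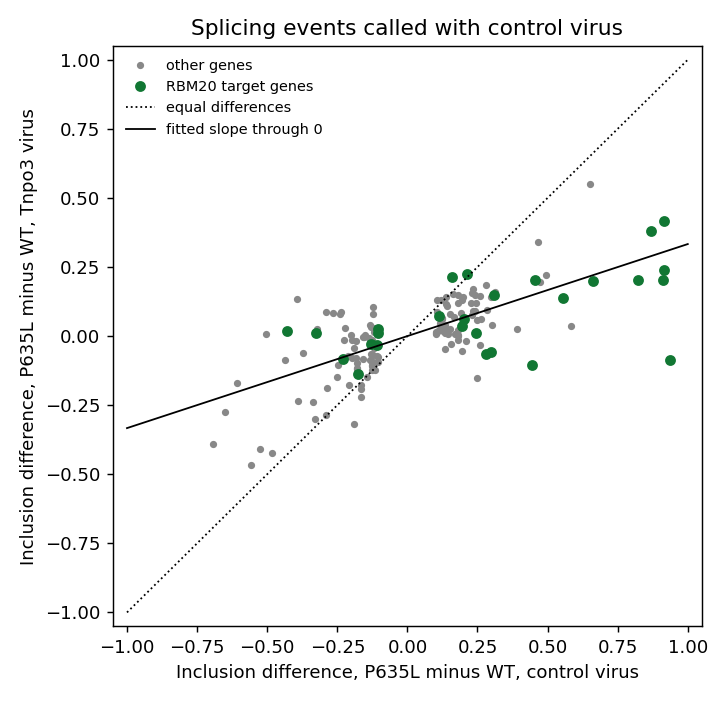
Inclusion difference P635L minus wild type with the control virus (x axis) and the Tnpo3 virus (y axis) for 161 events called with the control virus, green for RBM20 target genes. Events of the target genes with control-virus differences above 0.8 lie well under the dotted line of equal differences, and the fitted slope over all events is 0.333. All events shown were chosen by their control-virus difference.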

How the data were processed

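Left ventricle poly(A) RNA was sequenced with a strand-keeping kit, per the labels' protocols. The authors deposited raw gene counts; alignment with STAR 2.7.9a to GRCm39 and counting with featureCounts 2.0.6 are per the submitters' processing notes. The deposited splicing tables hold inclusion and skipping junction counts and inclusion levels per library, per the file headers. The authors' deposited differential tables were not used.

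Genes were tested with edgeR 4.0.16 (TMM scaling, filterByExpr, robust quasi-likelihood F test, a mean per group over 16 libraries, 12 residual degrees of freedom, Benjamini-Hochberg adjustment, two-sided). Levels are CPM. The gene p-values rest on the spread between mice of a group, pooled over all 4 groups of 4 mice. The biological coefficient of variation was 0.328 in WT Ctr, 0.169 in P635L Ctr, 0.3 in WT Tnpo3 and 0.176 in P635L Tnpo3. On simulated counts for this comparison (18223 to 18317 genes) 77% of 2-fold and 94.7% of 4-fold changes were recovered, with 5.33% false calls.

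Events were joined by gene, type and coordinates, required to average 10 or more junction reads per library on each side, and tested with edgeR's quasi-likelihood test, a term per library and a genotype term. The test was first run with an estimated negative binomial dispersion, which called 6 events. Simulated events then showed that this setting recovered 26% of inclusion changes of 0.2 and 82.5% of 0.4, or 0% and 2% when all events shared a single overdispersion. After 13 settings were compared on simulated events only, a dispersion of 0 was adopted: it recovered 63% and 95%, with 5.11% false calls (23423 to 23442 events), and 33.5% and 99.5% under the single overdispersion. These recoveries are for the 200 events given a change in each simulation, not for all simulated events. They are not separated by read number or starting inclusion level. They therefore do not show what the test recovers among events near the minimum of 10 reads. The Hyi exon, at 14 mean junction reads in WT Tnpo3, is such an event. The real spread can differ from the simulated one, so calls of both settings and of limma 3.58.1 are given. Exon sequences come from GENCODE M21 (GRCm38) transcripts, matched by gene, exon length and distance to the flanking exons, without converting coordinates.

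Named genes were Tnpo3, Rbm20, the 12 that rose and 12 that fell most without overlap and at a log2 CPM of at least 1, up to 4 called members of each list, and 5 interaction genes per direction. Named events were the largest called event of each target gene and 10 others with at least 50 reads. Tpm2 exons A and B, the Hyi exon, the 81- and 78-base Ttn exons and the Camk2d and Trdn exons fall outside that rule and were chosen after their values were seen. Members and lists were chosen with earlier results of these data known. Replicate numbers did not pair the libraries. Alternatives were scaling, filters, DESeq2 1.42.0, leaving out libraries, a replicate block and other splicing settings. Some genes that meet the naming rule are not reported here.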

Additional observations from a re-analysis of the deposited data

Results flagged for a closer look

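Of 98 groups of 4 values examined, 9 held a library far from the other 3 relative to the range of the 4 values. Chance alone gives about 5% of groups for normally distributed values, a rate that need not hold for inclusion levels near their limits. In expression these were Nppa at 4506 CPM in P635L Tnpo3 library 4, Acsm5 at 1.68 CPM in WT Tnpo3 library 4, and the 22.7% of counts that ENSMUSG00000119584 took in WT Tnpo3 library 4. In splicing they were the Fyttd1 intron at 0.418 in WT Tnpo3, the Aen exon at 0.364 in P635L Tnpo3, and 4 WT Tnpo3 values: the Tpm2 mutually exclusive pair at 0.849, Tpm2 exon B at 0.104, the 81-base Ttn exon at 0.011 and a Ttn mutually exclusive pair at 0.977. For both Ttn events the other 3 values were equal, so a difference of any size would have been flagged.

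The genotype effect differed between the viruses, by the interaction term in edgeR, for the following genes on the log2 scale. It was more positive with Tnpo3 virus for Gm34302 by 6.81, Myh7b by 6.53, Lgi1 by 3.58, ENSMUSG00000120208 by 3.57 and Rhd by 3.31. It was more negative for ENSMUSG00000121059 (-1.72), Fzd2 (-1.79), Crispld1 (-1.85), Casq1 (-2.10) and AW551984 (-4.96). Gm34302 averaged 0.0844 CPM in P635L Ctr, near the level of 3 counts, so the size of its value depends on the prior count.

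Inclusion differences between the genotypes also differed between the viruses. Ttn exons starting at chr2 76692456, 76632575, 76678623, 76680650 and 76691767 had interaction values of -0.621, -0.461, -1.02, -0.709 and -0.551, a Ttn mutually exclusive pair had -0.141, and the 60-base Camk2d exon had -0.676. The second event of that Camk2d exon, with another downstream exon, had -0.415 and did not pass the interaction in edgeR (adjusted p = 0.986). For the exon starting at 76678623 the WT Tnpo3 inclusion levels were 0, 0, 1.0 and 0.087 at 18.8 mean junction reads, and the library in position 3 alone put the wild-type mean above the P635L mean.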

How the results depend on the processing

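The 694 genes became 1458 with DESeq2, 462 with only the 8 Tnpo3 libraries, 299 with a log2 difference of at least 1, 386 without the 3 high-Xist libraries, 1887 without the 3 libraries rich in ENSMUSG00000119584 and 144 without WT Tnpo3 replicates 1 and 2 (an alternative chosen after seeing the data, as was the minimum for both forms). The estimated dispersion was the splicing setting first run, and the dispersion of 0 replaced it. Leaving out 1 library gave 280 to 1220. The 94 interaction genes became 146 with no filter, 414 with DESeq2, 54 without the high-Xist libraries, 322 without those rich in ENSMUSG00000119584 and 36 without WT Tnpo3 replicates 1 and 2, and 52 to 221 leaving out 1 library. The replicate block gave 547 genes and 113 interaction genes, and the numbers did not pair the samples (correlations of same-numbered libraries -0.186 to 0.00673). The 162 splicing events became 6 with limma, 6 with an estimated dispersion, 71 at a difference of at least 0.2, 52 among skipped exons only (fewer events tested), 89 with both forms at 5 reads or more, and 89 to 215 leaving out 1 library. The 28 interaction events became 2 with an estimated dispersion and 35 to 92 leaving out 1 library. The splicing slope of 0.333 became 0.374 at 20 reads, 0.364 with limma, 0.371 with an estimated dispersion and 0.365 with both forms at 5 reads, and 0.311 to 0.351 leaving out 1 library. The expression slope was 0.430 to 0.503 leaving out 1 library, and the Tnpo3 difference 0.227 to 0.770. Rbm20 changed sign to -0.108, -0.0502, -0.027, -0.0498 and -0.23 in 5 fits that left out libraries, with a range of -0.108 to 0.176 leaving out 1. Of the 59 named called genes, 19 passed under every alternative. Causes were not tested. How read depth bears on the calls was not tested.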
